A study of Arabidopsis thaliana with 15 samples.

Results

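AT1G22480 and AT4G12290 are a pair of Arabidopsis thaliana genes for copper proteins, the first of the cupredoxin family and the second a copper amine oxidase. Each is measured by 1 probe set annotated to that gene alone, and that probe set is used throughout. They are 2 of 16411 genes with such a probe set that could be matched to a locus tag. The tables used here list both by locus tag only, with no family name, so the family names are those in general use for these loci. Both were chosen by their intensities over the same 5 days described below, among the largest rises of the course, so their own values are given as a description and without a test.

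RNA came from hypocotyls of Col-0 plants, the standard laboratory ecotype, grown at 22 °C. All plants spent 6 weeks in short days of 8 h light, and were then moved to long days of 16 h light to bring on flowering. Hypocotyls were harvested at the switch (day 0) and on days 1, 2, 4 and 10 after it, with 3 pools of 8 plants on each day and 1 array per pool. All groups share the ecotype and the first growth period, and there is no set of plants kept in short days for the same time, so age and day length cannot be told apart.

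Cupredoxins of the plant phytocyanin group are small blue copper proteins that enter the secretory pathway, act outside the cell membrane and are thought to carry electrons. Copper amine oxidases use copper and a modified tyrosine to oxidise amines such as putrescine, and release an aldehyde, ammonia and hydrogen peroxide. Hydrogen peroxide in the cell wall is a substrate of the peroxidases that couple lignin units, and laccases, which are copper proteins as well, oxidise the same units with oxygen. In the Arabidopsis hypocotyl, flowering is followed by a phase of wood formation that adds fibres with thick, lignified walls.

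The arrays had median intensities of 84.1 to 90.6 and correlated at 0.983 to 0.990 within a day and at 0.965 to 0.988 between days. These correlations run over probe sets, which are no independent replicates of anything. Of 5 markers of xylem, 3 of phloem, 2 of cambium and 3 of shoot apex and flower, 0 had a matched probe set for 1 gene, so the make-up of the tissue was not analysed here through them. Of 5 markers of green tissue 3 were measured (RCA, LHCB4.1 and PRK). Their summed intensity was 1821 to 2021 on day 0, 1433 to 1840 on day 1, 1693 to 1825 on day 2, 1124 to 1263 on day 4 and 803 to 836 on day 10. In such whole-tissue samples, fewer cells of a type and less RNA per cell cannot be told apart. The part of this decline of green markers in the results below was not tested.

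AT1G22480 and AT4G12290 had the largest and the next largest rise from day 0 to day 10 among the 16411 genes. AT1G22480 stood 29.2-fold above day 0 (log2 4.87 ± 0.21 SE, n = 3 pools against 3) and AT4G12290 20.0-fold (log2 4.32 ± 0.19 SE). The third gene in this order, AT2G31930, stood 16.8-fold above day 0 and the fourth, AT3G29970, 9.70-fold. These ranks describe how the genes were chosen and carry no test.

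**Figure D1:**
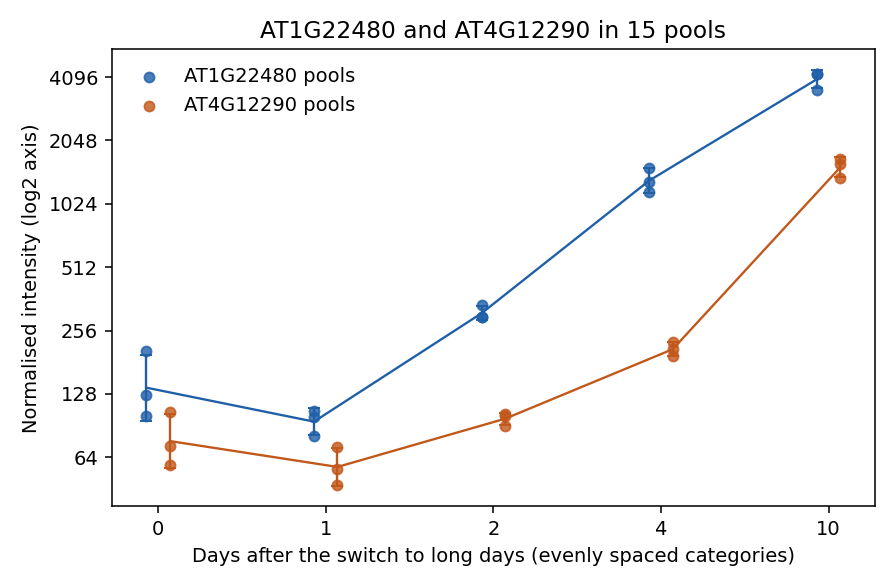
Normalised intensity of AT1G22480 (blue) and AT4G12290 (orange) in each of the 15 pools, on a log2 axis, against days after the switch in evenly spaced categories. Points are pools, lines join the geometric means of the days, and bars are 1 SD of the log2 values. AT1G22480 runs from 80.4 in its lowest pool on day 1 to 4242 in its highest on day 10, and AT4G12290 from 47.5 to 1669. The height of one probe set against another has no meaning here.

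AT1G22480, the cupredoxin gene, had intensities of 204, 126 and 100.3 in the 3 pools of day 0. On day 1 the pools were at 106, 80.4 and 99.2, and the pool at 80.4 lies below the lowest array median of 84.1. These groups overlap, since the highest day 1 pool lies above the lowest day 0 pool. On day 2 the pools were at 295, 339 and 296, all above every pool of days 0 and 1. Day 4 gave 1304, 1159 and 1521, and day 10 gave 4223, 3570.0 and 4242. From day 1 on, no pool of a later sampling day fell below any pool of an earlier one. The day means on the log2 scale were 7.10 ± 0.52 (SD, n = 3), 6.56 ± 0.21, 8.27 ± 0.11, 10.37 ± 0.20 and 11.97 ± 0.14 in the order of days. Day 0 had the widest spread, with the highest pool 2.03 times the lowest, against 1.15 to 1.32 times on the other days.

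AT4G12290, the amine oxidase gene, was at 105.4, 58.7 and 72.2 on day 0 and at 71.3, 47.5 and 56.5 on day 1. The day 0 and day 1 pools overlap here too. All pools of day 1, and those at 58.7 and 72.2 on day 0, lie below the lowest array median of 84.1. Folds and shares of AT4G12290 that start from such dim levels are less exact, and the background correction is not stated. Day 2 gave 90.5, 102.7 and 100.1, above every pool of day 1 but within the range of day 0. Day 4 gave 193, 225 and 209.6, and day 10 gave 1669, 1354 and 1574. All day 4 pools lie above day 0, and all day 10 pools above day 4. Its log2 means were 6.26 ± 0.43 (SD, n = 3), 5.85 ± 0.30, 6.61 ± 0.10, 7.71 ± 0.11 and 10.58 ± 0.16, again with the widest spread on day 0.

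On day 1 both genes had a lower mean than on day 0. The log2 difference was −0.54 ± 0.21 (SE) for AT1G22480 and −0.41 ± 0.19 for AT4G12290. These SE values pool the spread of all 5 days and understate that of day 0, with SD of 0.52 and 0.43. Much of that lower mean rests on 1 pool. Without day 0 replicate 1, the highest day 0 pool for both genes, the log2 differences were −0.25 and −0.18. Without the lowest day 0 pool of each gene they were −0.76 (AT1G22480, without replicate 3) and −0.60 (AT4G12290, without replicate 2).

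On day 2 AT1G22480 stood 2.26-fold above day 0 (log2 1.17 ± 0.21), with all 3 pools above, as in 18% of all 38408 probe sets. AT4G12290 was 1.28-fold above (log2 0.35 ± 0.19) with overlapping pools, and its log2 difference was 0.58 without day 0 replicate 1 and 0.16 without day 0 replicate 2. Against day 1 the same day 2 pools were 3.27-fold higher for AT1G22480 and 1.69-fold higher for AT4G12290, and for both genes all 3 pools lay above, as in 15.4% of probe sets. For AT1G22480 this step was the third largest rise of the 16411 genes. For AT4G12290 it ranked 124.

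On day 4 both genes had all 3 pools above day 0, as in 18.5% of probe sets, AT1G22480 9.63-fold and AT4G12290 2.73-fold higher. The step from day 2 to day 4 was 4.26-fold for AT1G22480 and 2.14-fold for AT4G12290, again with no overlap, as in 11.6% of probe sets. From day 4 to day 10 the order of the pair turned. AT4G12290 stood 7.31-fold higher over this step (log2 2.87 ± 0.19), the largest value of the 16411 genes, and AT1G22480 3.03-fold (log2 1.60 ± 0.21), which ranked 23. All 3 pools of day 10 lay above day 4 for both, as in 19.8% of probe sets, and above day 0, as in 21.5%.

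The pair differed in when most of the increase took place, as a description. By day 4 AT1G22480 had covered 67.1% of its log2 distance from day 0 to day 10, and AT4G12290 had covered 33.5%. The distance of AT4G12290 starts from dim pools on day 0, so its share is less exact. As intensity, day 4 stood at 33.0% of the day 10 level for AT1G22480 and at 13.7% for AT4G12290. Per day, the log2 change of AT1G22480 went from 1.71 between days 1 and 2 to 1.05 between days 2 and 4 and 0.27 between days 4 and 10. For AT4G12290 the corresponding rates were 0.76, 0.55 and 0.48, which lie closer together. No days between 4 and 10 were sampled, so the shape of the last step is not known.

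**Figure D2:**
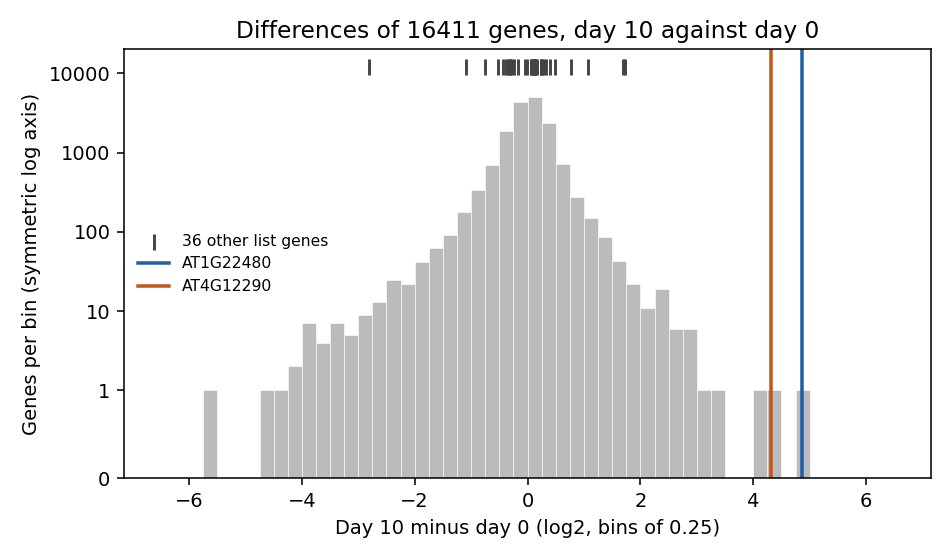
Distribution of the log2 difference between day 10 and day 0 over 16411 genes, in bins of 0.25 on the x axis, with the number of genes per bin on a symmetric log axis. Vertical lines mark AT1G22480 at 4.87 and AT4G12290 at 4.32, at the right end, and the ticks at the top mark the 36 other list genes, which run from −2.81 to 1.73.

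The pair followed each other over the course and partly also between the pools of a day. Over the 15 arrays their log2 values had a Pearson r of 0.94, as a description, since the points share the 5 days. After each day's mean was subtracted, r was 0.72, and the deviations had the same sign in 12 of 15 pools. Day 0 replicate 1 contributed most, with AT1G22480 0.57 and AT4G12290 0.46 above the day mean on the log2 scale. With it left out r was 0.53 over 14 pools, but the day 0 mean subtracted there still included it. That r therefore still carries part of its effect. Replicates 2 and 3 of day 0 stay below that mean, AT1G22480 at −0.12 and −0.45 and AT4G12290 at −0.38 and −0.08. The order of these pools was opposite for the pair. In day 0 replicate 1 the xylan synthesis genes IRX10, IRX10L, IRX15 and IRX15L deviated by 0.09, 0.03, −0.03 and −0.08. There the green tissue genes RCA, LHCB4.1 and PRK deviated by 0.10, −0.11 and −0.20. The lowest pool of day 1 (replicate 2), day 2 (replicate 1) and day 10 (replicate 2) was also the same for both genes. On days 0 and 4 it was not. On day 4, replicate 2 was the lowest pool for AT1G22480, at −0.19, and the highest for AT4G12290, at 0.11.

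**Figure D3:**
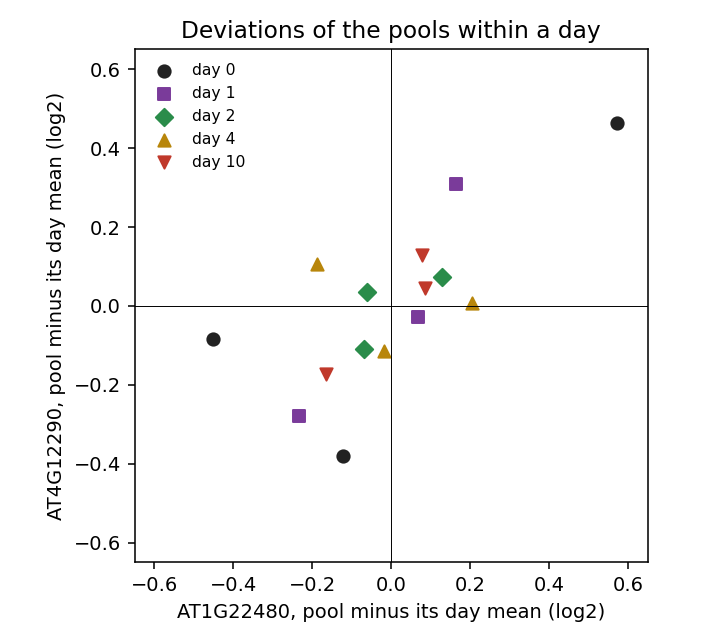
Deviation of each pool from its day mean on the log2 scale, for AT1G22480 on the x axis and AT4G12290 on the y axis, with a marker for each day. The pool at the upper right, at 0.57 and 0.46, is day 0 replicate 1, and 12 of the 15 pools lie in the lower left or upper right quadrant.

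Relatives of the pair were then examined, with a moderated test (limma) fitted to all 38408 probe sets and called at a Benjamini-Hochberg adjusted p below 0.05. The 36 genes comprise 11 other blue copper protein genes of 37 listed, 8 other copper amine oxidase genes of 10, and 5 genes of polyamine metabolism of 19. They also include 6 genes of 27 in the laccase and multicopper oxidase family, and 2 genes of copper delivery and use of 26. Another 4 are xylan genes, the measured part of 27 xylem wall genes. Over the 5 days 21 of the 36 changed, beside 41.5% of all probe sets.

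Among the 8 other copper amine oxidase genes 1 stood out by size, and in the opposite direction to AT4G12290. AT1G31710 had intensities of 3553, 3698 and 3838 on day 0 and of 3563, 3145 and 3403 on day 2. On day 4 it was at 1470, 1328 and 1940, and on day 10 at 609, 521 and 462. The pools of day 4 all lie below those of the first 3 sampling days, and those of day 10 below day 4. AT1G31710 fell 2.37-fold by day 4 (log2 −1.25 ± 0.13 SE, adjusted p = 2.99e-05) and 7.01-fold by day 10 (log2 −2.81 ± 0.13, adjusted p = 1.68e-08). On days 1 and 2 it was at log2 −0.07 and −0.13 (adjusted p = 0.874 and 0.539). Over the 15 arrays its r with AT4G12290 was −0.97 and with AT1G22480 −0.93, as a description of profiles that share the sampling days.

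The other 7 amine oxidase genes lay between log2 −0.24 and 0.40 on day 10. Of these, AT1G31670, AT1G31690, AT4G12270 and AT4G12280 were dim, below the lowest array median of 84.1 in every pool. Changes of such dim probe sets may be missed. CuAO1 (AT1G62810) rose 1.24-fold by day 4 (log2 0.31 ± 0.07, adjusted p = 0.00793) and 1.19-fold by day 10 (log2 0.25 ± 0.07, adjusted p = 0.0211). In a fit restricted to the 6 arrays under comparison both of its calls were lost, at adjusted p = 0.0583 and 0.0920. AT3G43670 rose 1.40-fold by day 4 (log2 0.48 ± 0.07, adjusted p = 3.74e-04) and fell 1.25-fold from day 4 to day 10 (log2 −0.32 ± 0.07, adjusted p = 0.00947), the second of which was lost at 0.104 with only those 6 arrays. In the reference gene table for the assembly TAIR10.1, AT4G12270 and AT4G12280 lie on the same side of AT4G12290, with a pseudogene, AT4G12275, between them. AT4G12270 had pools of 36.8 to 40.6 on day 0 and of 35.9 to 46.2 on day 10, and AT4G12280 of 24.4 to 26.1 and of 29.2 to 39.9. Their day 10 differences were log2 0.14 ± 0.15 and 0.40 ± 0.25 and did not pass (adjusted p = 0.573 and 0.263). Neither gene was called in any comparison, the test over the 5 days included. Whether probes of one amine oxidase gene also bind transcripts of another was not tested, because probe sequences were not used here.

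As a list, the 8 other amine oxidase genes had 0 calls on day 1, and 0 on day 2 (limma), with median log2 differences of 0.01 and 0.03. Of all probe sets, 4.88% and 20.4% were called on these days. At an unadjusted p below 0.05, 1 was lower on day 1 and 0 differed on day 2. On day 4, 2 rose and 1 fell (median 0.04), and on day 10, 1 rose and 1 fell (median 0.14), beside 25.7% and 28.8% of all probe sets called. With 8 genes, the 2 calls of day 10 lie near that share. The medians over all genes were 0.02, 0.02, 0.00 and 0.02 on these days.

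The 11 other blue copper protein genes lay between log2 −0.75 and 1.07 on day 10, beside 4.87 for AT1G22480. AT3G60270, AT2G26720, AT2G31050, AT1G45063, AT3G17675 and AT3G53330 were dim, below the lowest array median of 84.1 in every pool, so changes of theirs may be missed. AT1G72230 was at 822, 992 and 864 on day 0, at 1339.7, 1363 and 1418 on day 2, and at 1904, 1773 and 1912 on day 10, with no overlap between these days. It rose 1.54-fold by day 2 (log2 0.63 ± 0.08, adjusted p = 3.07e-04) and 2.09-fold by day 10 (log2 1.07 ± 0.08, adjusted p = 1.70e-06). Its r with AT1G22480 over the 15 arrays was 0.89, the highest of these 11 genes.

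A pair of them, AT5G26330 and AT3G27200, went up and then down. AT5G26330 rose 1.3-fold by day 2 (log2 0.38 ± 0.06, adjusted p = 0.00138) and fell 1.49-fold from day 4 to day 10 (log2 −0.57 ± 0.06, adjusted p = 8.73e-05). AT3G27200 rose 1.37-fold by day 2 (log2 0.46 ± 0.08, adjusted p = 0.00120) and fell 1.59-fold from day 4 to day 10 (log2 −0.67 ± 0.08, adjusted p = 9.47e-05). AT5G07475 fell 1.68-fold by day 10 (log2 −0.75 ± 0.10, adjusted p = 1.15e-04). ARPN (AT2G02850), the plantacyanin gene, rose 1.52-fold from day 1 to day 2 (log2 0.61 ± 0.13, adjusted p = 0.00955), a call lost at 0.0927 with only the 6 arrays compared.

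Counted together, 0 of the 11 were called on day 1 by limma (0 higher and 4 lower at an unadjusted p below 0.05), beside 4.88% of all probe sets. On day 2, 3 rose, which is near the 20.4% called over all probe sets. On day 4, 3 rose and 2 fell, beside 25.7% called, and on day 10, 1 rose and 4 fell, beside 28.8%. The medians were 0.01, 0.18, 0.06 and −0.17 on the log2 scale.

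Several of these calls were near the threshold. The day 4 rise of AT3G27200 (log2 0.23, adjusted p = 0.0396) was lost under 8 of 23 alternatives, at up to 0.149, and that of AT5G26330 (log2 0.25, adjusted p = 0.0135) under 1, at 0.0581. The day 4 fall of AT1G45063 (log2 −0.47, adjusted p = 0.0347) was lost under 7 of 22, at up to 0.128. Both genes that fell on day 4 are dim and drop out under the filter on dim probe sets: between day 0 and day 4 the level went from 11.6 to 8.38 for AT1G45063 and from 19.7 to 13.5 for AT3G17675, as log2 means turned back to intensity. Of the 4 that fell by day 10, AT3G17675 (log2 −0.35, adjusted p = 0.0345) was lost at 0.0555 with only the 6 arrays compared and at up to 0.115 over the alternatives.

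**Figure D4:**
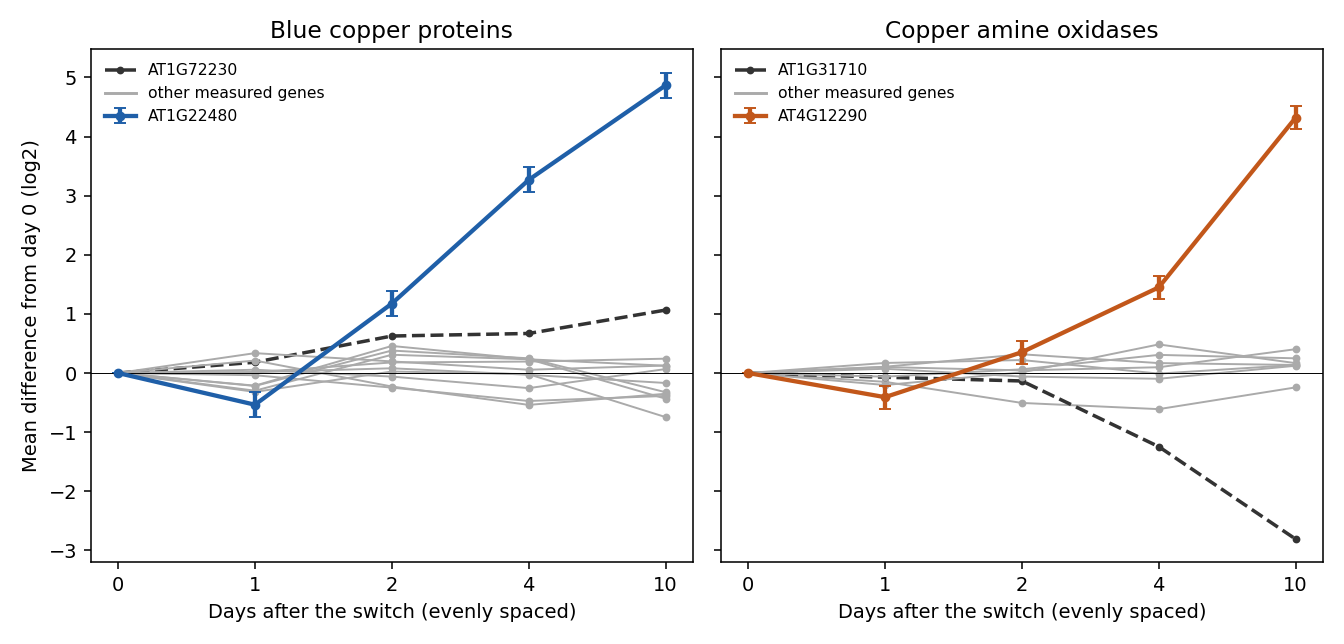
Mean log2 difference from day 0 on each sampling day, in evenly spaced categories, for 12 blue copper protein genes (left) and 9 copper amine oxidase genes (right). Thick coloured lines are AT1G22480 and AT4G12290 with SE bars, dashed lines are AT1G72230 and AT1G31710, and grey lines are the other measured genes. The coloured lines end at 4.87 and 4.32, the dashed ones at 1.07 and −2.81.

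Of the laccase and multicopper oxidase family genes, 6 of 27 were measured, and they gave 0 rises in any comparison with day 0 by limma. At an unadjusted p below 0.05, 1 was higher on day 1 and 0 on days 2, 4 and 10. Over all probe sets 2.39% were called higher on day 1, 10% on day 2, 11.5% on day 4 and 14.8% on day 10, so 0 rises among 6 genes does not set the list apart. LAC16 (AT5G58910), a laccase, fell 2.14-fold by day 10 (log2 −1.10 ± 0.16, adjusted p = 1.84e-04). SKU5, which acts in directional root growth, and AT5G21100 fell by day 10 as well, by log2 −0.28 (adjusted p = 0.0306) and −0.52 (adjusted p = 0.0493). The SKU5 call was lost under 6 of 23 alternatives, at adjusted p of up to 0.114, and that of AT5G21100 under 18 of 22, at up to 0.179. In all, 3 of the 6 genes fell by day 10, beside 28.8% of all probe sets called in either direction. LAC4, LAC11 and LAC17, the laccases best known for lignin, are not analysed here.

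In polyamine metabolism, which makes and uses the substrates of amine oxidases, 5 of 19 genes were measured. SAMDC2 (AT5G15950), an S-adenosylmethionine decarboxylase of spermidine synthesis, rose 2.08-fold by day 1 (log2 1.05 ± 0.12, adjusted p = 2.04e-04) and was 1.55-fold above day 0 on day 4 (log2 0.63 ± 0.12, adjusted p = 0.00180). From day 4 to day 10 SAMDC2 fell 1.57-fold (log2 −0.65 ± 0.12, adjusted p = 0.00264). ALDH10A9, an aminoaldehyde dehydrogenase, rose 1.33-fold by day 2 (log2 0.42 ± 0.06, adjusted p = 5.98e-04). The related ALDH10A8 did not pass against day 0 on any day, and neither did SAMDC1.

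Of the copper delivery genes CCS (AT1G12520), the chaperone that supplies copper to superoxide dismutase, had intensities of 308, 349 and 352 on day 0 and of 456, 513 and 453 on day 10. CCS rose 1.41-fold over this span (log2 0.49 ± 0.08, adjusted p = 3.26e-04). CITF1, a regulator of copper uptake, did not pass (day 10 log2 −0.31). The xylan gene IRX10, which helps build the xylan backbone of secondary walls, rose 3.33-fold by day 10 (log2 1.73 ± 0.08, adjusted p = 1.23e-08). Its r was 0.97 with AT1G22480 and 0.95 with AT4G12290, the highest of the 36 genes for each, as a description of profiles that share the sampling days. Among 16410 other genes, an r of at least 0.95 was reached by 90 for AT1G22480 and by 77 for AT4G12290. For IRX15, IRX10L and IRX15L r was 0.94, 0.86 and 0.72 with AT1G22480, and 0.87, 0.70 and 0.53 with AT4G12290. All 4 xylan genes were called higher on days 4 and 10 (limma), beside 11.5% and 14.8% of probe sets. The lists were chosen with earlier results of these data known, so this count is a description and no test of the list. IRX15 was dim up to day 4, at 23.4 to 66.0, below the lowest array median of 84.1, and drops out under the filter on dim probe sets. Their day 10 differences ran from log2 0.32 to 1.73.

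Over all 36 genes, 3 were called on day 1 (2 higher, 1 lower), beside 4.88% of all probe sets. On day 2 there were 8 (8 higher, and 0 lower by limma, or 2 lower at an unadjusted p below 0.05), beside 20.4%. Day 4 gave 16 (12 and 4), beside 25.7%, and day 10 gave 16 (8 and 8), beside 28.8%. Along the steps, 12 were called from day 1 to day 2 (9 and 3), beside 14.9%, 4 from day 2 to day 4 (3 and 1), beside 5.42%, and 11 from day 4 to day 10 (4 and 7), beside 17.1%. The split into higher and lower depended on the scaling. After median centring it was 2 and 0 on day 1, 13 and 2 on day 4 and 9 and 5 on day 10, and after quantile normalisation 2 and 2, 12 and 2, and 9 and 6.

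The genes next to AT1G22480 in the reference gene table did not share its course. AT1G22470 had pools of 84.2 to 168 on day 0 and of 46.6 to 58.7 on day 10, 2.30-fold lower (log2 −1.20 ± 0.41, adjusted p = 0.0453). That call was lost under 12 of 23 alternatives, at adjusted p of up to 0.152. AT1G22490, listed as bHLH94, fell 1.42-fold by day 10 (log2 −0.51 ± 0.10, adjusted p = 0.00151). The gene next to AT4G12290 on its other side, CYP706A4, had no matched probe set for 1 gene.

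Profiles most like each member were looked up by Pearson r of the log2 values over the 15 arrays, among 16410 other genes. An r of at least 0.9 was reached by 373 genes for AT1G22480 and by 335 for AT4G12290. AT4G12290 ranked 123 in the order for AT1G22480, and AT1G22480 ranked 113 in the order for AT4G12290. For AT1G22480 the 8 highest were AT1G55760 (r = 0.984), AT5G47530 (0.980), AT5G39180 (0.980), AT1G64370 (0.978), AT5G49990 (0.977), AT4G08160 (0.976), AT1G01640 (0.976) and AT5G59530 (0.976). AT4G08160 is listed as ATXYN3, a name used for xylanases. Their day 10 levels were 1.72-fold to 3.89-fold above day 0, beside 29.2-fold for AT1G22480. Pearson r takes no account of the size of a change, so these genes were not picked for it. For AT4G12290 the 8 were AT4G26580 (0.987), AT1G13830 (0.985), AT3G51325 (0.983), AT4G32910 (0.982), TRM30 (0.979), the glycosyl hydrolase family 9 gene GH9B5 (0.977), AT2G28315 (0.977) and AT4G32760 (0.976). Among these AT4G26580 and GH9B5 differed most in level, at 7.85-fold and 7.76-fold above day 0 on day 10, and AT4G32760 least, at 1.25-fold.

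The 2 sets of 8 shared 0 genes, and the 100 most like each member shared 29, which is 29% of each set. Which genes make up the 8 depended on the measure: with Spearman rho 2 of the 8 stayed for AT1G22480 and 0 for AT4G12290, although 7 and 5 of them were still among the 100 most like. The most opposite profiles to AT1G22480 were AT3G17340 (r = −0.986), ICU2 (−0.982), which encodes the catalytic subunit of DNA polymerase alpha, and AT2G40010 (−0.982). The most opposite to AT4G12290 were AT4G16980 (−0.987), AT4G11190 (−0.986) and the beta-glucosidase gene BGLU47 (−0.984). All 3 were lower on day 10, by log2 −3.61, −5.65 and −3.13.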

How the data were processed

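The authors deposited normalised intensity values for 38408 probe sets on 15 arrays. Per the submitters' processing notes, RMA and Partek were used. Their versions, roles and the background correction are not stated in these sources. The values are positive and linear, so they were taken to log2 with a pseudocount of 0 and no further scaling. Of the probe sets, 16722 are annotated to 1 gene, 759 to several and 20927 to none, and 16574 of the first matched the reference table by gene identifier, covering 16411 genes. Where a gene has several probe sets, that with the highest mean was used. AT1G22480 and AT4G12290 have 1 each.

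limma 3.58.1 in R 4.3.3 was fitted with 1 mean per day over all arrays (10 residual degrees of freedom) and tested on simulated data. Tests were two-sided, with Benjamini-Hochberg adjustment over all probe sets. Folds are ratios of geometric means, and SE values come from this fit. It takes 1 spread per gene for all 5 days, so the SE of a gene is the same in every comparison. For AT1G22480 and AT4G12290, whose pools spread most on day 0, it is too narrow for differences from day 0. With 3 pools a day, precision is limited by the number of arrays, and the p-values reflect pool-to-pool spread alone. Figures used matplotlib 3.10.9 in Python 3.11.15.

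The members and the 6 lists were chosen with earlier results of these data known. List members come from general knowledge of the loci, and 38 of 146 were measured. Named were the members, up to 5 genes per list and comparison by smallest adjusted p with neighbours and relatives, and the 8 most like and 3 most opposite profiles. Alternatives were other scalings, the mean of a gene's probe sets, a filter on dim probe sets, only the arrays compared, a trended robust spread, the replicate number as a block, and leaving out each array.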

Additional observations from a re-analysis of the deposited data

How the results depend on the processing

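Of 96 calls of single genes, 0 reversed and 30 were lost under at least 1 alternative, most often with only the 6 arrays compared (24), which leaves fewer residual degrees of freedom. Median centring lost 9, cyclic loess 1, quantile normalisation 5 and the trended robust spread 5. For the 36 list genes, day 1 against day 0 gave 3 calls, but 1 with the replicate number as a block, 1 with only the 6 arrays compared and 6 of 22 genes left when dim probe sets were dropped. Day 4 against day 0 gave 16 but 10 with only 6 arrays, and day 4 against day 2 gave 4 but 0 with only 6 arrays and 7 without dim probe sets. Calls over all probe sets shifted too. Day 1 went from 1874 of 38408 to 1594 with the block, 917 with only 6 arrays and 2263 of 19204 without dim probe sets. Day 4 against day 0 went from 9869 to 7229 with only 6 arrays. Day 4 against day 2 went from 2080 to 311 with only 6 arrays and 3200 of 19204 without dim probe sets. The shifts are thus not particular to the list. Leaving out 1 pool, the counts ran from 1 to 3 on day 1, 8 to 9 on day 2, 12 to 17 on day 4 and 12 to 16 on day 10. For the steps they ran from 8 to 13 (day 2 against 1), 2 to 4 (day 4 against 2) and 10 to 12 (day 10 against 4), and over the 5 days from 19 to 23. Day 1 dropped to 1 call when any of 5 pools was left out: replicate 3 of day 0, replicates 1 and 2 of day 1, and replicate 3 of days 4 and 10. Day 4 against day 2 dropped to 2 when any pool of day 2, or replicate 2 or 3 of day 4, was left out. Over all 38408 probe sets the calls without these same pools were 1291 to 1715 for day 1 and 1151 to 1527 for day 4 against day 2. The fall of AT1G31710 from day 2 to day 4 (adjusted p = 6.23e-04) went to 0.0510 with only the 6 arrays compared.

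Without 1 pool, the log2 differences from day 0 of AT1G22480 ran from −0.76 to −0.25 on day 1, 0.95 to 1.46 on day 2, 3.04 to 3.55 on day 4 and 4.64 to 5.15 on day 10. Those of AT4G12290 ran from −0.60 to −0.18, 0.16 to 0.58, 1.26 to 1.68 and 4.13 to 4.55. Scaling moved all of them by less than 1 SD between pools. Of the 8 profiles most like AT1G22480, 2 stayed with Spearman rho, 5 after median centring and 1 over the 5 day means. Of those most like AT4G12290, 0 stayed with Spearman rho and 1 over the day means.

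The labels share replicate numbers between days and do not say what the numbers stand for. Deviations of same-numbered arrays correlated at −0.16 to 0.12 over 30 pairs, beside −0.14 to 0.15 for arrays with different numbers. No pairing showed in these values, which cannot decide whether the pools were handled in pairs. The replicate block ended 8 of the 96 calls, while the calls among the 36 list genes over the 5 days went from 21 to 24. Over all 38408 probe sets the calls over the 5 days went from 15936 to 14877.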
